A study of Homo sapiens with 6 samples.

Results

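The genes described here encode leukocyte integrins and their partners. They are the α chains ITGAL, ITGAM and ITGAX, the shared β chain ITGB2, the α chain ITGA4, the integrin activator FERMT3, and the ligands ICAM1, ICAM2 and ICAM3. They were taken by name from the count table, all 9 were found there, and they stand among 61852 genes. The set was selected on its measured difference between the groups of these libraries, so its own values are given as a description with no test.

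RNA-seq counts came from MEG-01, an established human megakaryoblastic leukaemia line, in 2 groups of 3 libraries. Control cells carried the empty lentiviral vector pLKO.1, and knockdown cells carried a single short hairpin RNA against the kinase gene MELK, named sh2-MELK. The labels call the 3 samples of each group biological replicates and give 1 batch code for all 6. The sources used here do not give the time after transduction or the selection of transduced cells. The control held no hairpin, and no other hairpin was tested.

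Integrins are adhesion receptors made of an α and a β chain. ITGB2 protein (CD18) pairs with ITGAL (CD11a) to form LFA-1, with ITGAM (CD11b) to form Mac-1 and with ITGAX (CD11c), and these receptors hold leukocytes to the ICAM proteins, fibrinogen and complement fragments. ITGA4 pairs with ITGB1 or ITGB7 and binds VCAM-1, fibronectin and MAdCAM-1. Kindlin-3, the product of FERMT3, binds the β tail beside talin and switches integrins on in blood cells. In megakaryocytes and platelets it does so for αIIbβ3, the product of ITGA2B and ITGB3.

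Library totals lay between 18945176 and 21711313 counts. Correlations of log2 CPM, the count scaled to library size, were 0.994 to 0.996 within groups and 0.891 to 0.908 between them. MELK itself had 219, 206 and 238 counts with the empty vector against 16, 124 and 26 with the hairpin. Its log2 fold change was -1.98 ± 0.69 (SE), which did not pass the threshold (edgeR adjusted p = 0.104). Knockdown library 2 decided this, as without it the value was -3.32 (edgeR adjusted p = 0.00271). In the model of added numbers described next, the 124 counts of that library held an added 100 with a probability of 100%, leaving 24 reads, and MELK was at -3.39 (-3.88 to -2.97). With all 6 libraries MELK also passed with no filter on low counts (edgeR adjusted p = 0.00961) and in limma-voom (adjusted p = 0.0487). In 35797 genes (57.9%) every value was 0, 1, 2, 10 or 100, and the other counts were modelled as a read count plus 1 of those numbers. Genes with few reads are therefore also given as modelled reads, the estimate after that number is allowed for, with a 95% profile interval. Of the megakaryocyte markers, ITGA2B, GATA1 and NFE2 were abundant, and GP1BB, PF4 and TREML1 held no value other than the added numbers.

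RefSeq promoter windows were listed for ITGAM, ITGA4, FERMT3, ICAM1 and ICAM3. FERMT3 had 2 windows and ICAM3 had 3, for alternative starts. The 250 bases before the RefSeq start (GRCh38.p14), in FERMT3 the first, are shown for 3 genes whose differences were far apart, a large decrease in ITGAM, a small one in FERMT3 and groups that overlapped in ICAM1. All 3 lie on the plus strand, at chr16:31259725-31259974, chr11:64206471-64206720 and chr19:10270870-10271119. Capitals mark the word GAGGAA, the core of sites bound by the myeloid factor PU.1, in ITGAM and FERMT3. In ICAM1 they mark GGAAATTCC, a κB word read by NF-κB, and TTCCGGGAA, a word read by STAT factors.
ITGAM: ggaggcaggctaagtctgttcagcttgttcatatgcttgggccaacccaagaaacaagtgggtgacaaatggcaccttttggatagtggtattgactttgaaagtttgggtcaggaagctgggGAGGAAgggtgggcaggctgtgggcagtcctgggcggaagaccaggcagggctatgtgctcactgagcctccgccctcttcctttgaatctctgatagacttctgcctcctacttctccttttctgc
FERMT3: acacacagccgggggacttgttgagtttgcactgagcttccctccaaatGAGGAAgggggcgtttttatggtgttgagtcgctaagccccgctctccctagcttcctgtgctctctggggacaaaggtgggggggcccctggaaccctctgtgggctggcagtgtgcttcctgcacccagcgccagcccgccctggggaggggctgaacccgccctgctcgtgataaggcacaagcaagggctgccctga
ICAM1: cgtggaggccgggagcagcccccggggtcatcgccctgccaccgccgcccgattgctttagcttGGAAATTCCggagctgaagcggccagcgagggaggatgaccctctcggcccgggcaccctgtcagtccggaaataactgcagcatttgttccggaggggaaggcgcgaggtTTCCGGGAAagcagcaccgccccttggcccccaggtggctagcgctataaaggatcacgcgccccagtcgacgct
Both strands were searched in these windows and in all 35116 RefSeq windows. GAGGAA began 127 bases before the start in ITGAM and 201 bases before the first start in FERMT3. On the minus strand it also lay 17 bases before the second FERMT3 start, and on the plus strand 45 bases before the start of the first ICAM3 window. It was present in 23.6% of all windows. GGAAATTCC began 186 bases and TTCCGGGAA 75 bases before the ICAM1 start, and they were present in 0.413% and 0.262% of all windows. The ICAM1 window also held TATAAA, 30 bases before the start, as did 10.7% of windows. The GC box GGGCGG, which overlaps no other word searched, was found in all 3 windows and in 42.6% of all. The word TGTGGT, read by RUNX factors, was in none of the 3 and in 11% of all windows. These matches are letters in a window and were not measured as bound sites.

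Of the 9 genes, 6 were past the edgeR threshold as lower in the knockdown, 1 was past it as higher, and 2 were not past it. The threshold was a Benjamini-Hochberg adjusted p below 0.05 in edgeR's quasi-likelihood test over 28303 tested genes, and 16.5% of these were past it in either direction, 8.43% as lower and 8.12% as higher. The libraries of the groups did not overlap in CPM for 8 of the 9 genes, against 30.7% of tested genes. Most tested genes have few reads, and of those averaging 500 counts or more 68.0% were past the threshold. At that depth 4 of the 6 well-counted genes described here were lower and 1 was higher. The median log2 fold change over the 9 was -0.96, against 0.02 over all tested genes. Since the genes were chosen with this contrast known, nothing is read from these shares.

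**Figure D1:**
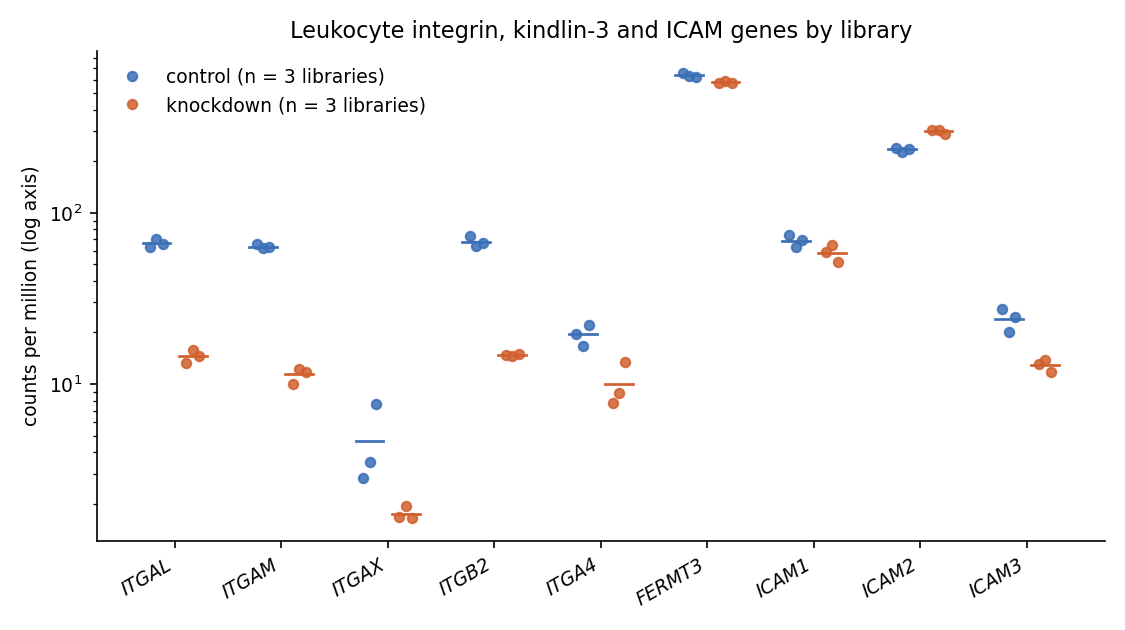
CPM (log axis) of the 9 genes in each library, with control in blue, knockdown in orange and the group mean as a line. ITGAL, ITGAM and ITGB2 lie between 61.9 and 73.0 CPM in the control and between 10 and 15.7 CPM in the knockdown, and ICAM1 is the gene whose groups overlap.

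Of the 9 genes, the β2 integrin chains ITGAM, ITGB2 and ITGAL had the largest differences. ITGB2 (ENSG00000160255; chromosome 21, 44885953 to 44931989, minus strand, GRCh38), the chain that every β2 receptor needs, was at 73.0, 63.7 and 66.7 CPM in the control libraries, against 14.8, 14.5 and 15.0 CPM in the knockdown libraries. All knockdown libraries lay far below all control libraries, and they were close to each other. The group means were 67.8 ± 4.77 and 14.7 ± 0.27 CPM (SD, n = 3), a level 4.6-fold lower and a log2 fold change of -2.20 ± 0.07 (SE). The antisense gene ITGB2-AS1 overlaps ITGB2 and held 3, 7 and 100 control counts and 1, 3 and 0 knockdown counts, beside 1227 to 1491 and 283 to 291 counts of ITGB2. Neither strand nor counting mode is known, but the antisense gene's own counts were few.

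ITGAM (ENSG00000169896; chromosome 16, 31259967 to 31332892, plus strand), the α chain of Mac-1, was at 65.3, 61.9 and 63.3 CPM in the control and at 10, 12.3 and 11.8 CPM in the knockdown. The groups did not overlap, and the spread within each was small. The means were 63.5 ± 1.72 and 11.3 ± 1.2 CPM (SD, n = 3), with a log2 fold change of -2.48 ± 0.09 (SE), a level 5.6-fold lower. ITGAL (ENSG00000005844; chromosome 16, 30472658 to 30523185, plus strand), the α chain of LFA-1, was at 63.0, 70.2 and 65.5 CPM against 13.3, 15.7 and 14.6 CPM. Again all libraries of one group lay apart from the other. Its means were 66.2 ± 3.65 and 14.5 ± 1.2 CPM (SD, n = 3), and its log2 fold change was -2.19 ± 0.08 (SE), a level 4.56-fold lower. In bulk RNA, fewer cells that express a gene and less of its RNA per cell cannot be told apart.

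ITGAX (chromosome 16, 31355134 to 31382997), the α chain of CD11c/CD18, had few reads. Its counts were 58, 67 and 157 in control libraries against 33, 39 and 31 in knockdown libraries. Control library 3 stood apart, and in the model its value held an added 100 with a probability of 100%. The edgeR log2 fold change was -1.41 ± 1.0 (SE), and it was -0.84 without control replicate 3. With the added number modelled, ITGAX was at 58.0 reads (48.8 to 67.5) in the control and 32.4 reads (24.5 to 40.2) in the knockdown, a log2 difference of -0.84 (-1.31 to -0.44). ITGAD, the remaining known partner of ITGB2, held only values of the added numbers, with 100, 1 and 10 control counts and 2, 1 and 2 knockdown counts.

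Levels of different genes can be compared only roughly, after division by exon length. The length used joins all annotated exons of a gene and can exceed that of the transcripts expressed. The order of genes and the ratio of α chains to ITGB2 depend on it. In modelled reads per kilobase of exon, ITGAM was at 218, ITGAL at 200, ITGB2 at 194 and ITGAX at 8.2 in the control. In the knockdown ITGAL was at 43.9, ITGB2 at 42.4, ITGAM at 39.1 and ITGAX at 4.58. ITGAM was above ITGAL in each control library and below it in each knockdown library. ITGB2 lay above ITGAL in 1 library and below it in 2 in either group, so the levels of these chains were not in a fixed order. ITGAM made up 52.8%, 49.5% and 51.4% of the summed α chain level per kilobase in the control libraries, against 43.6%, 44.5% and 45.4% in the knockdown libraries. ITGAL made up 45.3% to 48.4% in the control and 49.7% to 50.8% in the knockdown, and ITGAX 1.82% to 2.1% and 4.9% to 5.6%. None of these 3 shares overlapped between the groups, and that of ITGAX rests on 29.3 to 62.3 estimated reads per library. The estimates judge each library's added number at the modelled level of its own group, which draws libraries of a group together. The shares are parts of the same sum, so they are not separate observations. The summed α chain level divided by that of ITGB2 was 2.05, 2.34 and 2.2 in the control, against 1.86, 2.26 and 2.05 in the knockdown. This ratio overlapped between the groups.

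**Figure D2:**
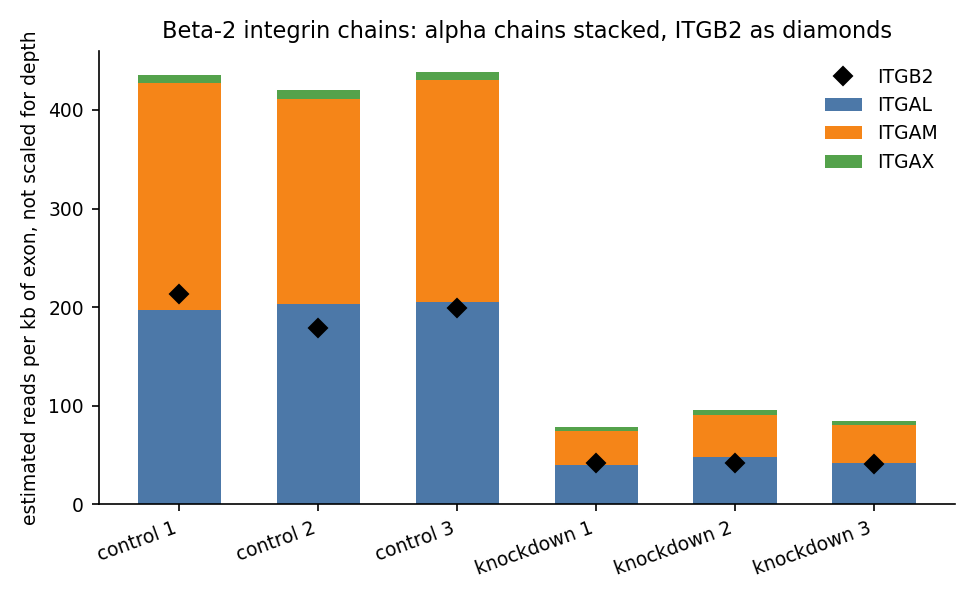
Estimated reads per kilobase of exon (linear axis from 0, not scaled for depth) in each library, with the α chains ITGAL, ITGAM and ITGAX stacked and ITGB2 as diamonds. ITGB2 is at 179 to 213 in the control and 41.2 to 42.4 in the knockdown, and the stack shrinks with it.

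ITGA4 (chromosome 2, 181457202 to 181536187), the α4 chain of VLA-4, was at 19.7, 16.6 and 22.1 CPM in the control and at 7.76, 8.84 and 13.5 CPM in the knockdown. Knockdown library 3 came nearest to the control, and the groups did not overlap. The means were 19.4 ± 2.76 and 10 ± 3.03 CPM (SD, n = 3), with a log2 fold change of -0.96 ± 0.22 (SE). In the model, control library 3 held an added 100 with a probability of 96.1% and knockdown library 3 with a probability of 100%. Modelled reads were 350 (299 to 403) and 162 (145 to 180), a log2 difference of -1.11 (-1.38 to -0.83). ITGA4 was no longer past the edgeR threshold without control replicate 1 (log2 fold change -0.94), control replicate 3 (-0.85), knockdown replicate 1 (-0.80) or knockdown replicate 2 (-0.87).

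The α4 chain has a choice of β partners, and these moved apart. ITGB7, which forms α4β7 and αEβ7, fell from 42.5 ± 2.21 to 12.7 ± 1.26 CPM (SD, n = 3), giving a log2 fold change of -1.75 ± 0.09 (edgeR adjusted p = 5.45e-06). ITGB1, the β chain of VLA-4 and of many matrix receptors, rose from 33.0 ± 4.19 to 45.0 ± 1.61 CPM, or by 0.45 ± 0.09 (edgeR adjusted p = 0.0112). ITGB1 lost its call without control replicate 2, knockdown replicate 1 or knockdown replicate 2 (edgeR adjusted p of 0.0573 to 0.0681), and its difference was 0.07 once trends with GC content and length were removed (adjusted p = 0.837).

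Of 21 other integrin subunit genes 17 were tested, of which 5 rose, 3 fell and 9 did not pass. The share past the threshold was 47.1%, beside 16.5% of all tested genes. The median log2 fold change of the 17 was 0.45, over genes that mostly had few reads. Of the 5 that averaged 500 counts or more, 2 rose and 3 fell, beside 68.0% past the threshold among all genes at that depth. The median of these 5 was -0.70, of the opposite sign. The platelet chains ITGA2B (-0.93 ± 0.03, adjusted p = 4.58e-07) and ITGB3 (-0.70 ± 0.06, adjusted p = 9.21e-05) fell, by less than the β2 chains. ITGA2B did not pass with limma-voom (adjusted p = 0.155). ITGA5, the α chain of the fibronectin receptor, rose by 0.84 ± 0.03 (edgeR adjusted p = 8.60e-07). The calls not yet named were in ITGB5 (2.72 ± 0.25), ITGAV (1.68 ± 0.47) and ITGA9 (1.41 ± 0.38), chains of matrix receptors averaging fewer than 500 counts, which are named to complete the count and were picked after their values were seen. The 5 higher calls of the list dropped to 2 without control replicate 2, knockdown replicate 1 or knockdown replicate 2, and to 3 without any other 1 library or with the replicate block. The lower calls numbered 3 or 4 in these fits.

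**Figure D3:**
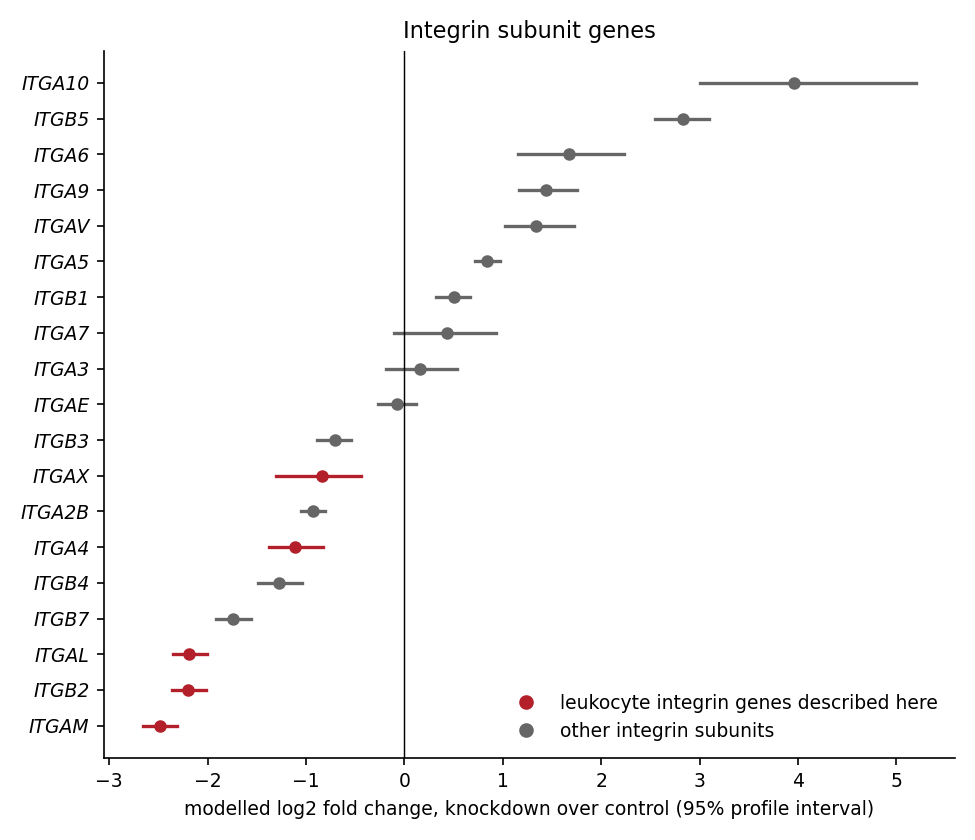
Modelled log2 fold change, knockdown over control, with its 95% profile interval, for integrin subunit genes with at least 20 modelled reads in a group. ITGAM (-2.48), ITGB2 (-2.20) and ITGAL (-2.19) form the lower end of the plot, followed by ITGB7 (-1.74), while ITGA5 (0.84) and ITGB1 (0.50) lie above 0. The upper end is formed by ITGA10 (3.96) and ITGB5 (2.83), which averaged fewer than 500 counts and are named after their values were seen. ITGA10 did not pass in edgeR.

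The kindlin FERMT3 (chromosome 11, 64206678 to 64223886) was the most abundant of the 9 genes, at 4105 modelled reads per kilobase in the control. It was at 655, 630 and 624 CPM in the control and at 574, 585 and 574 CPM in the knockdown. The groups did not overlap, but they lay close together. The means were 637 ± 16.5 and 577 ± 6.26 CPM (SD, n = 3), with a log2 fold change of -0.14 ± 0.03 (SE). With library size alone as the scaling the difference was -0.07, and with trends with GC content and length removed it was 0.15, past the threshold in the opposite direction. With that correction 2 of the 9 genes were past it as higher and 5 as lower. TRPT1 overlaps FERMT3 on the other strand and held 299 to 572 counts, beside 10823 to 13380 for FERMT3.

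Of 22 tested genes of inside-out activation, the signalling that switches integrins on from within the cell, 4 rose, 8 fell and 10 did not pass, with a median log2 fold change of -0.18. Among those that averaged 500 counts or more, 4 of 15 rose and 7 fell, beside the 68.0% of all genes at that depth. RASGRP2, the calcium-responsive exchange factor CalDAG-GEFI that activates RAP1, fell from 133 ± 3.29 to 41.2 ± 0.669 CPM (-1.69 ± 0.04, edgeR adjusted p = 9.38e-08). APBB1IP, the RAP1 effector RIAM that recruits talin, fell by 1.07 ± 0.05 on the log2 scale (edgeR adjusted p = 1.91e-06), as did the RAP1-inactivating RAP1GAP2, by 1.09 ± 0.11 (edgeR adjusted p = 0.000141). The small GTPase RAP1B itself rose by 0.97 ± 0.09 (edgeR adjusted p = 0.000142). Talin, TLN1, was at 1528 ± 1.88 and 1364 ± 62.7 CPM, a log2 fold change of -0.16 ± 0.03 (edgeR adjusted p = 0.0109), and its difference was 0.05 with the GC and length trends removed. TLN1 also lost its call with library size alone, without knockdown replicate 1 and without any 1 of the control replicates. FERMT2, the kindlin of adherent cells, had 17, 3 and 19 control counts and 130, 40 and 50 knockdown counts. It did not pass in edgeR (2.54 ± 1.48, adjusted p = 0.361), and its modelled log2 difference was 2.62 (1.8 to 3.38).

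Of 31 tested genes that signal from bound integrins into the cell, 6 rose, 12 fell and 13 did not pass, with a median of -0.27. Among those that averaged 500 counts or more, 6 of 24 rose and 11 fell, beside the 68.0% of all genes at that depth. LYN, a SRC family kinase active downstream of leukocyte integrins, fell from 165 ± 6.46 to 47.0 ± 0.34 CPM (-1.82 ± 0.04, edgeR adjusted p = 9.84e-08). The adaptor chain gene FCER1G rose by 1.16 ± 0.10 (edgeR adjusted p = 6.22e-05), L-plastin, LCP1, which bundles actin, by 1.14 ± 0.05 (edgeR adjusted p = 2.58e-06), and paxillin, PXN, by 0.83 ± 0.06 (edgeR adjusted p = 4.01e-05).

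The ligands of the β2 integrins did not share a direction. ICAM1 (chromosome 19, 10270835 to 10286615, plus strand), the inducible ligand of LFA-1 and Mac-1, was at 73.8, 63.5 and 68.9 CPM in the control and at 58.9, 64.9 and 51.6 CPM in the knockdown. Knockdown library 2 lay above control library 2, so the groups overlapped. The means were 68.7 ± 5.14 and 58.5 ± 6.65 CPM (SD, n = 3), giving a log2 fold change of -0.23 ± 0.09 (SE), which was not past the edgeR threshold. The modelled difference was -0.25 (-0.40 to -0.09), and ICAM1 was past the threshold in that model, in DESeq2, with no filter on low counts and over genes averaging 500 counts or more. With the GC and length trends removed it was -0.05. Antisense genes LIMASI and ICAM4-AS1 overlap it, with 90 to 211 and 47 to 199 counts.

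ICAM2 (chromosome 17, 64002594 to 64020634, minus strand), a ligand of LFA-1 carried constitutively by endothelium and platelets, was at 240, 227 and 236 CPM in the control and at 304, 303 and 290 CPM in the knockdown. It was the only 1 of the 9 genes higher in the knockdown, with no overlap between groups. The means were 235 ± 6.49 and 299 ± 8.03 CPM (SD, n = 3), giving a log2 fold change of 0.35 ± 0.03 (SE), a level 1.27-fold higher. It ranged from 0.33 to 0.55 over the alternatives. PRR29, on the opposite strand, overlaps it with 107 to 135 control counts and 143 to 308 knockdown counts, beside 4382 to 6092 of ICAM2.

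ICAM3 (ENSG00000076662; chromosome 19, 10333776 to 10339823, minus strand), the ICAM of resting leukocytes, was at 27.4, 20.1 and 24.7 CPM in the control and at 13, 13.8 and 11.8 CPM in the knockdown. All control libraries were above all knockdown libraries. The means were 24.1 ± 3.71 and 12.9 ± 0.98 CPM (SD, n = 3), giving a log2 fold change of -0.90 ± 0.14 (SE). Control library 1 held an added 100 with a probability of 97.5%, and the modelled difference was -0.79 (-1.01 to -0.55). ICAM3 is overlapped on the opposite strand by the antisense gene ENSG00000274425. That gene held 461, 441 and 496 control counts and 348, 347 and 259 knockdown counts. ICAM3 itself held 560, 387 and 506 control counts and 256, 277 and 223 knockdown counts. The antisense gene thus held more counts than ICAM3 in control library 2 and in every knockdown library. Without the strand setting, reads of these genes cannot be told apart.

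Per kilobase of exon, ICAM2 was above ICAM1 and ICAM1 above ICAM3 in both groups, at 1427, 362 and 148 modelled reads in the control, against 1819, 305 and 85.1 in the knockdown. In the control ICAM3 stood below ITGB2 (194), and in the knockdown above ITGB2 (42.4). These orders depend on the exon lengths used, which join all annotated exons of a gene. Of 15 other ligands of leukocyte integrins 11 were tested, of which 2 rose, 2 fell and 7 did not pass, with a median of 0.18. The share past the threshold was 36.4%, beside 16.5% of all tested genes. At an average of 500 counts or more, 2 of 4 rose and 2 fell, beside 68.0% of all genes at that depth. ICAM4, the red cell ICAM, fell from 67.6 ± 2.57 to 23.8 ± 1.16 CPM (-1.50 ± 0.06, edgeR adjusted p = 1.11e-06), and ICAM5 by 0.54 ± 0.09 on the log2 scale (edgeR adjusted p = 0.00288). The junctional ligands F11R (JAM-A, bound by LFA-1) and JAM3 (JAM-C, bound by Mac-1) rose by 0.92 ± 0.03 and 0.79 ± 0.06 (edgeR adjusted p = 5.52e-07 and 2.49e-05). VCAM1, the main cellular ligand of VLA-4, had 0.332 and 0.833 modelled reads, close to none.

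**Figure D4:**
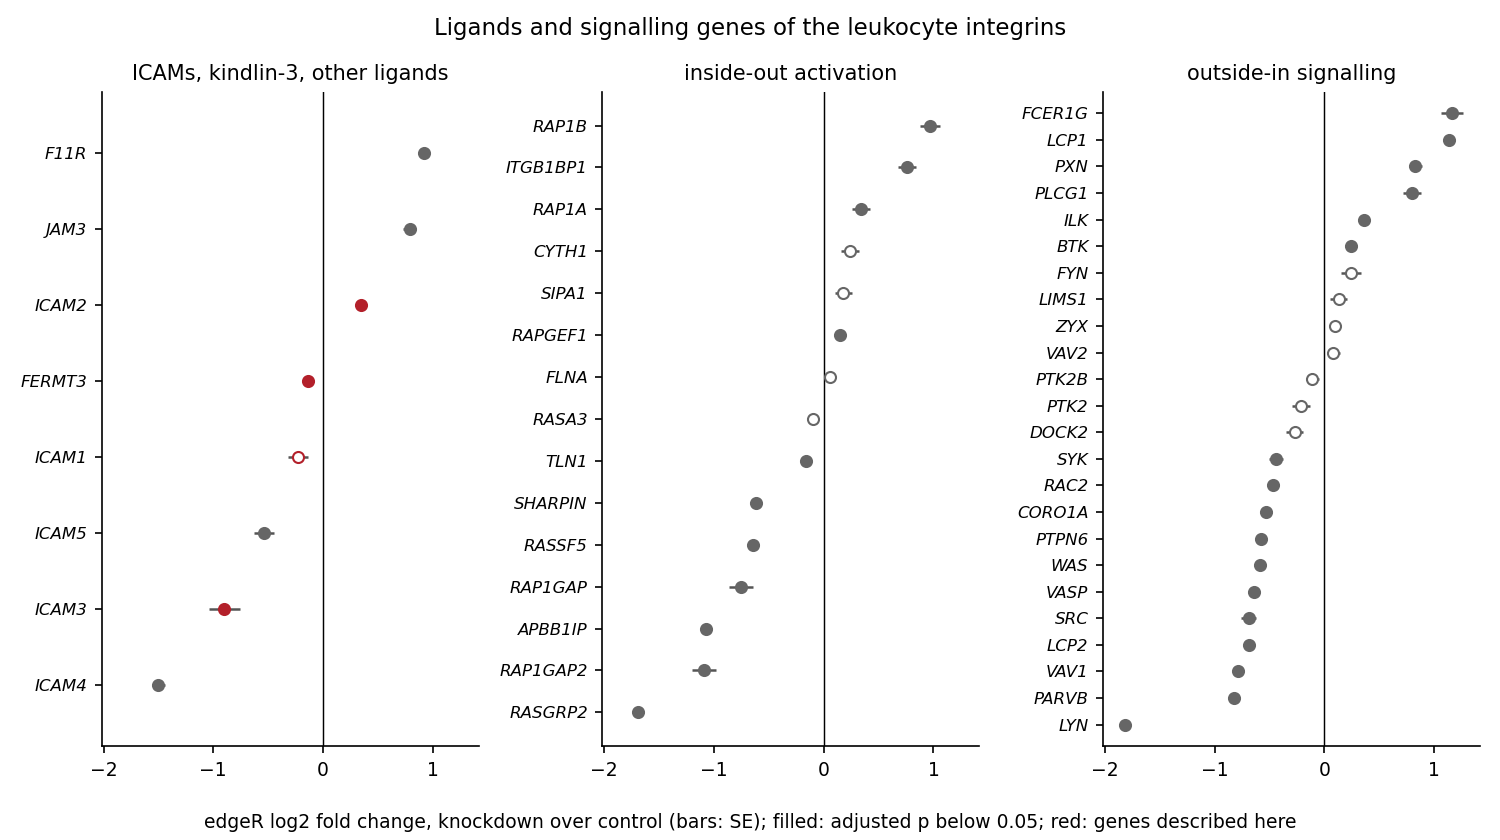
edgeR log2 fold change (bars, SE) of the 3 ICAM genes and FERMT3 (red) and of other ligand and signalling genes averaging 500 counts or more (grey), filled where past the threshold. ICAM4 (-1.50), RASGRP2 (-1.69) and LYN (-1.82) are the lowest in their panels, and each panel has genes on both sides of 0.

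Several of the 9 genes lie together in the genome. ITGAM ends 22.2 kb before ITGAX, which ends 10.3 kb before ITGAD, and ITGAL ends 737 kb before ITGAM on the same arm of chromosome 16. On chromosome 19, ICAM1, ICAM4, ICAM5 and ICAM3 follow each other with gaps of 0.352, 1.46 and 37 kb. Within that cluster the log2 fold changes were -0.23 ± 0.09, -1.50 ± 0.06, -0.54 ± 0.09 and -0.90 ± 0.14 in this order, so adjacent ICAM genes differed in size, and all were below 0. Around the 9 genes, 116 other protein-coding genes start within 250 kb of a start, and 93 of these were tested. Of the 54 neighbours averaging 500 counts or more, 16 rose and 26 fell (77.8%), beside 68.0% of all genes at that depth. The neighbours with the largest changes at that depth were ICAM4, MACROD1 near FERMT3 (-1.06 ± 0.07, edgeR adjusted p = 1.33e-05), RAVER1 beside ICAM3 (-0.99 ± 0.09, adjusted p = 9.23e-05) and BCKDK near ITGAM (-0.90 ± 0.06, adjusted p = 1.28e-05). Of the 17 tested neighbours of ITGAM, 2 rose and 5 fell. Around ITGB2, 2 of 6 rose and 2 fell. Both counts are at any depth, where 49.5% of the tested neighbours and 16.5% of all tested genes were past the threshold.

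**Figure D5:**
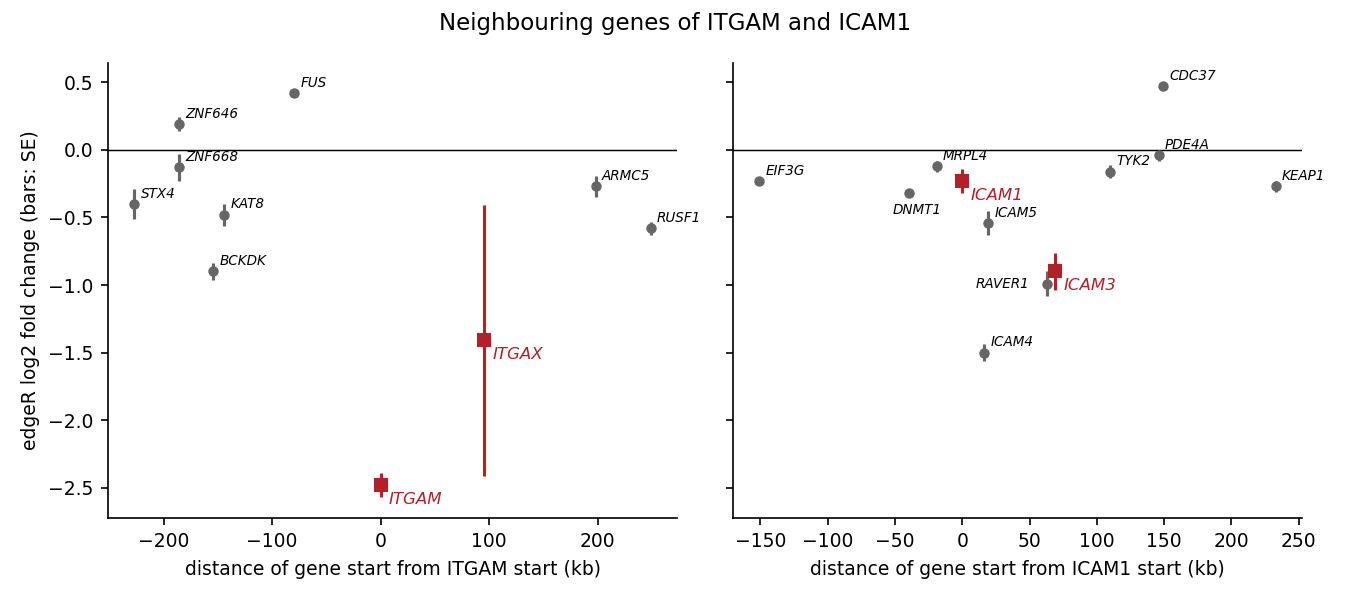
edgeR log2 fold change (bars, SE) against the distance of each gene's start from that of ITGAM (left) or ICAM1 (right), in kb, for protein-coding neighbours averaging 500 counts or more (grey) and the genes described here (red). ITGAM (-2.48) lies below each of its plotted neighbours, while ICAM4 (-1.50) lies below ICAM1 and ICAM3.

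Of 29 listed genes, mostly transcription factors that are candidates for acting on these promoters, 25 were tested. Of these 4 rose, 9 fell and 12 did not pass, with a median of -0.15. At an average of 500 counts or more, 4 of 17 rose and 9 fell, beside 68.0% of all genes at that depth. SPI1, which encodes PU.1, fell from 116 ± 6.24 to 53.2 ± 1.53 CPM (-1.13 ± 0.05, edgeR adjusted p = 2.11e-06). The ETS factor gene ELF4 fell by 1.39 ± 0.05 on the log2 scale (edgeR adjusted p = 4.80e-07) and RUNX3 by 0.71 ± 0.09 (edgeR adjusted p = 0.000543). The ETS factor gene FLI1 rose by 0.68 ± 0.08 (edgeR adjusted p = 0.000489) and the repressor gene GFI1 by 0.69 ± 0.05 (edgeR adjusted p = 3.98e-05). Whether any of them bears on the integrin genes was not tested.

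Over the 6 libraries, the 5 genes most like ITGB2 by Pearson correlation of log2 CPM, of 5037 compared, were YIF1B (r = 0.9999), JAGN1 (0.9997), SPATA20 (0.9996), NDUFV1 (0.9996) and RASGRP2 (0.9995). These r values are a description over 6 libraries that form separate groups, and they rest on the difference between the groups. The sizes differed, with log2 fold changes of -0.96, -0.43, -1.0, -0.60 and -1.69 against -2.20 for ITGB2.

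Markers of the cells that carry β2 integrins were mostly low. Of 16 granulocyte and monocyte markers 13 were tested, of which 2 rose, 1 fell and 10 did not pass. The share past the threshold was 23.1%, beside 16.5% of all tested genes. In the added-number model 3 of these markers were higher and 6 were lower, so the balance of directions turned. CSF1R, a monocyte receptor picked after its values were seen, had 40, 45 and 38 control counts and 11, 11 and 11 knockdown counts. It did not pass in edgeR (-1.85 ± 1.09, adjusted p = 0.367). In the model it was among the lower, at 37.4 and 1.01 modelled reads, with a wide interval (-5.21, -7.24 to -1.3). The list summed to 305 to 349 CPM per control library and 242 to 270 CPM per knockdown library. CD33, a surface receptor of early myeloid cells, made up most of this sum, and it fell from 271 ± 11.8 to 191 ± 6.35 CPM (-0.50 ± 0.04, edgeR adjusted p = 6.31e-05). The lysozyme gene LYZ was at 25.0 ± 1.35 and 30 ± 0.593 CPM (0.27 ± 0.07, edgeR adjusted p = 0.0428). LYZ lost that call in 11 of its 15 alternatives, where its log2 fold change ranged from -0.10 to 0.34. FCGR1A, the high-affinity IgG receptor of monocytes, was the other marker that rose (2.79 ± 0.25, edgeR adjusted p = 7.80e-05), and it is named after its values were seen to complete the count. The defining genes MPO, ELANE, PRTN3, AZU1, S100A8 and CD14, picked after their values were seen, were at 13.3 modelled reads or fewer in both groups. So were CTSG, CSF3R, CD68, S100A9 and CD163, and FCN1 held only the added numbers. Of 10 lymphocyte markers 5 were tested and 0 passed the edgeR threshold, while 1 passed in DESeq2, 2 in the model and 1 had an unadjusted edgeR p below 0.05. They summed to 5.63 to 21.9 CPM per control library and 11.1 to 24.7 CPM per knockdown library, and CD3G held only the added numbers. Of 16 megakaryocyte markers 13 were tested, of which 2 rose and 5 fell (53.8%, beside 16.5% of all tested genes). The list summed to 2694 to 2832 CPM per control library and 1619 to 1696 CPM per knockdown library. ITGA2B made up most of this sum, at 2024 ± 64 and 1061 ± 20.8 CPM, so the sum mainly follows that gene. Besides ITGA2B and ITGB3, GATA1 (-0.56 ± 0.04, edgeR adjusted p = 2.07e-05) and NFE2 (-0.47 ± 0.03, adjusted p = 3.06e-05) fell and the collagen receptor gene GP6 rose (0.52 ± 0.05, adjusted p = 8.53e-05). The other markers past the threshold were CD9 (1.39 ± 0.14, edgeR adjusted p = 0.000192) and GP1BA (-0.90 ± 0.13, adjusted p = 0.00132). CD9 and GP1BA averaged fewer than 500 counts and are named after their values were seen, to complete the count. The part of these markers in the integrin differences was not tested.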

How the data were processed

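RNA-seq was measured in 6 poly(A)-selected, paired-end libraries of MEG-01 cells, 3 control and 3 knockdown, grouped by the sample titles. The authors deposited whole-number counts of each gene in 1 table, raw per the file headers. The build GRCh38 and the tools fastp, STAR, HTSeq, FastQC, R 4.3.3 and DESeq2 stand in the submitters' processing notes, without their order. For the counting, the strand setting and annotation release were not given in the sources used here. Of 61852 genes, 61803 had a symbol.

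The 9 genes, the lists and the tests were chosen with earlier results of these data known. Counts were fitted over all genes with edgeR 4.0.16 (TMM scaling, filterByExpr at a minimum count of 10, robust quasi-likelihood F-test, no block, Benjamini-Hochberg adjusted p below 0.05). The labels speak of biological replicates without naming separate cultures. The p-values then measure only how these samples vary, which may be technical. The added number was modelled as a draw with equal chance from 0, 1, 2, 10 and 100 on top of a negative binomial read count with dispersion 0.00293, with 95% profile intervals, and modelled reads refer to a library of mean size. That dispersion was estimated over genes averaging 500 counts or more and was used for every gene. The intervals and calls of the model therefore do not use the spread of each gene itself between libraries. Both procedures were run on data simulated with the same added numbers, and the outcome is not given here. Changes were simulated only in genes above a minimum read level, so changes in genes with few reads in both groups were not tested. CPM used TMM-scaled library sizes. Coordinates and exon lengths are from GENCODE release 29 on GRCh38, and promoter windows from RefSeq (GRCh38.p14), where 5 of the 9 genes were listed. The alternatives were other scalings, no filter, only genes averaging 500 counts or more, the replicate block, each library left out, DESeq2 1.42.0, limma-voom (limma 3.58.1) and the added-number model. A correction of every library for trends with GC content and length was chosen after the data were seen.

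Besides the 9 genes, the rule named MELK, ITGA2B, ITGB3, ITGB1, ITGB7, ITGAD, TLN1, FERMT2 and SPI1. It also took up to 4 further genes of each list and of the genome neighbours that passed averaging 500 counts or more, largest change first, and the 5 genes most like ITGB2. Genes outside it are said to be picked after their values were seen, except overlapping genes, markers without reads and VCAM1.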

Additional observations from a re-analysis of the deposited data

How the results depend on the processing

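ITGAL (-2.25 to -2.06), ITGAM (-2.55 to -2.38), ITGB2 (-2.24 to -1.97), ICAM2 (0.33 to 0.55) and ICAM3 (-1.02 to -0.61) kept their direction and their side of the threshold in every alternative run, 16 each and 15 for ICAM3. FERMT3 was at 0.15, past the threshold as higher, with the GC and length trends removed, an alternative chosen after the data were seen, and it was not past the threshold with library size alone (-0.07) or with the added number modelled (-0.14). Across 5038 genes averaging 500 counts or more, log2 fold change and GC content had a Spearman correlation of -0.386 (across genes, which are not independent), and the 9 genes had a median GC content of 56.9% against 53%. ITGAX passed in the added-number model alone. Its edgeR value was -1.66 to -0.84 with 1 library left out. The count past the threshold was 4683 over all genes and 8964 with the added number modelled, and for the 9 genes it was 6 to 8. With 1 library left out, ITGA4 ranged from -1.23 to -0.80. The number of other adhesion molecules past the threshold was 9, or 17 in the model, and that of granulocyte and monocyte markers 3, or 9 (3 higher and 6 lower). Of the lymphocyte markers, 1 passed in DESeq2 and 2 in the model. The other integrin subunits gave 5 calls among genes averaging 500 counts or more, without control replicate 2 and without knockdown replicate 1, each with 2 higher and 3 lower. The cause was not tested.

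With the replicate number as a block, 4182 genes and 7 of the 9 were past the threshold. Same-numbered libraries correlated at 0.0998, -0.0124 and -0.0801 in their deviations, and library 1 alone matched its own number best, so the numbers were not taken as pairs. No call of the 9 changed under the block.

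The added number limits genes with few reads, here ITGAX and, less so, ITGA4 and ICAM3. RNA was measured, not surface protein, in 1 cell line with 1 hairpin.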

Other observations

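Other adhesion molecules of leukocytes, outside the integrins and their ligands, moved both ways. Of 25 listed, 21 were tested, of which 4 rose, 5 fell and 12 did not pass, with a median log2 fold change of 0.0. Among those that averaged 500 counts or more, 4 of 10 rose and 5 fell, beside 68.0% of all genes at that depth. SELPLG, which encodes the P-selectin ligand PSGL-1, fell from 134 ± 2.32 to 36.4 ± 0.864 CPM (SD, n = 3), giving a log2 fold change of -1.88 ± 0.04 (edgeR adjusted p = 6.37e-08). The sialyltransferase gene ST3GAL4, which helps to make selectin ligands, fell by 0.77 ± 0.04 on the log2 scale (edgeR adjusted p = 7.08e-06) and CD24 by 0.88 ± 0.05 (edgeR adjusted p = 7.93e-06). CD44, the hyaluronan receptor, rose from 675 ± 18.1 to 1452 ± 23.5 CPM (1.11 ± 0.03, edgeR adjusted p = 1.70e-07).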
